A study of Mus musculus with 12 samples.

Results

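Primordial germ cells (PGCs) lacking Tet1 were placed, gene by gene, on the change that wild-type PGCs made between embryonic day 11.5 (E11.5) and E13.5. The libraries staged here are 4 of the 12 in the series, namely 2 Tet1-KO libraries (genotype Tet1 -/-, age E13.5) and 2 E11.5 libraries (genotype wild type). All are C57BL/6 PGCs, with cDNA amplified from 500 to 2000 cells for Tet1-KO and from 400 to 5000 cells for E11.5. The end of the change is the E13.5f column of the authors' E11.5 to E13.5f table, a group no sample title carries. Wild-type E13.5 cells (WT, 3 libraries, from 500 to 2000 cells) stand beside Tet1-KO in the knockout table. A further 3 wild-type E13.5 libraries labelled E13.5m served for comparison, and values for 2 wild-type libraries at E9.5 are given for a few genes. The labels give no sex for the Tet1-KO, WT or E11.5 cells, do not describe the Tet1 allele, and do not say whether libraries came from separate embryos. The p-values deposited with the tests thus reflect only how these libraries differed among themselves, a spread that may be technical.

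Genes were members when they were listed in the knockout table and had a completed test in the E11.5 to E13.5f table. This gave 11973 genes, of 16394 in the first and 22552 in the second. The knockout table was multiplied by 0.962, the median ratio of E13.5f to WT over 9930 genes above 1 FPKM in both. FPKM is a fragment count divided by transcript length and library size, so levels can be compared between genes. E13.5f and WT were nearly the same column apart from this factor: before scaling, the quartiles of the single-gene ratios were 0.957 and 0.969. They may be the same libraries, which the labels do not settle. The E11.5 to E13.5f test and the WT to Tet1-KO test would then share their controls, and nothing is read here from how many genes both call.

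Of the 11973 genes, the authors' deposited table called 1141 higher (9.53%) and 319 lower (2.66%) at E13.5f than at E11.5, at a q-value under 0.05. Path genes are the 1333 of these whose change was at least 1 on the log2(FPKM + 1) scale, 1035 that rose and 298 that fell. The position of Tet1-KO is the share of that change it showed, with 0 at the E11.5 level and 1 at the E13.5f level. As a share of a log2 change, it can be high for a long rise whose level is still far below E13.5f. Positions under -0.25 are called reversed, from -0.25 to 0.25 not begun, from 0.25 to 0.75 part way, from 0.75 to as much as 0.25 past the E13.5f level completed, and beyond that overshot. These names describe levels and are not tests, since the tables were normalised separately and hold 1 pooled value per group. Depth and spread per library are unknown. A log2 ratio of Tet1-KO over E11.5 is printed with a standard error (SE) built from both deposited tests as if they were independent, which counts the wild-type error in each.

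TET1 is a dioxygenase that oxidises 5-methylcytosine in DNA to 5-hydroxymethylcytosine. PGCs settle in the gonad around E11.5 while their DNA loses most of its methylation. In the fetal ovary they then enter meiosis, a step that needs retinoic acid and BMP signals, the RNA-binding protein DAZL and the retinoic acid target STRA8. In the fetal testis they are held out of meiosis, and Nodal signalling and NANOS2 mark the male path.

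The labels fitted the germ cell and knockout genes measured. Tet1 (chromosome 10, 62267317 to 62342762, build mm9) stood at 10.01 FPKM at E11.5, 6.11 at E13.5f, 6.12 in WT and 0.209 in Tet1-KO. The PGC markers Ddx4, Dppa3 and Pou5f1 were abundant in E11.5, E13.5f and Tet1-KO. In this order Ddx4, a germ cell helicase gene, was at 153, 269 and 176 FPKM. Dppa3 was at 1317, 1208 and 1007 FPKM, and Pou5f1 at 606, 404 and 356 FPKM. Kit, a further PGC marker, was much lower, at 13.1, 10.6 and 15.7 FPKM, and at 3.45 FPKM in E13.5m. Markers of the gonadal soma were low, with a summed level over 16 listed genes of 6.56 FPKM at E11.5, 19.9 at E13.5f and 22.7 in Tet1-KO, where 2 of them were at 0. Within that sum the supporting cell genes Wnt4, Foxl2, Gata4 and Wt1 and the steroidogenic factor gene Nr5a1 read higher in Tet1-KO, at 1.71, 0.918, 0.828, 1.31 and 0.702 FPKM, than in scaled WT, at 0.171, 0.153, 0.140, 0.559 and 0.367 FPKM. None of these 5 was called. Blood markers summed to 29.6, 6.44 and 1.49 FPKM over 7 genes, with 3 at 0 in Tet1-KO, Hbb-y among them. Endothelial, mesenchymal and epithelial genes without Vim, Sparc, Epcam, Cdh1, Krt8 and Krt18 summed to 79.5, 73.9 and 97.5 FPKM over 9 genes, and 4 were at 0 in Tet1-KO. Pecam1 alone was at 61.5, 67.7 and 94.7 FPKM, most of this sum, which is thus no measure of other cells. Vim, a mesenchymal marker that the PGC groups also show and that is left out of this sum, was at 96.8, 87.0 and 199 FPKM and was called higher in Tet1-KO than in WT. What part other cells had in the results was not tested. Fewer cells of a type and less RNA per cell cannot be told apart in such pooled samples.

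Promoters of 4 path genes that rose are shown because TET1 acts on CG dinucleotides. In the results below Stra8 and Dazl are part way and Brdt and Tex101 not begun. No gene of another class is shown. Each is the RefSeq window of build GRCm38.p6 from 250 bases before to 50 after the annotated gene start, with every CG in capitals. CG reads the same on both strands.
Stra8, chr6:34920698-34920997, plus strand: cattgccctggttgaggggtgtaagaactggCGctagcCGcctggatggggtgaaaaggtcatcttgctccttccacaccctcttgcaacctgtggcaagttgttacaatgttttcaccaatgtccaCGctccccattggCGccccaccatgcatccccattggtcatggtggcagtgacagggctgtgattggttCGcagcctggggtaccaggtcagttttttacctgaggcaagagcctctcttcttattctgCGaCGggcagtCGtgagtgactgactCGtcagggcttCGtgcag
Dazl, chr17:50293571-50293870, minus strand: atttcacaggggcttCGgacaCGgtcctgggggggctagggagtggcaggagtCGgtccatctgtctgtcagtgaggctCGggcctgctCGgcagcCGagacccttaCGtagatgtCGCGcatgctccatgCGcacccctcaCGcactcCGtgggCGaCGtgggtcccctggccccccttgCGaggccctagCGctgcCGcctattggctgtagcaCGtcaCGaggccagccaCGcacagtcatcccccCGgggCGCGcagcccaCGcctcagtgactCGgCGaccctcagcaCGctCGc
Brdt, chr5:107330944-107331243, plus strand: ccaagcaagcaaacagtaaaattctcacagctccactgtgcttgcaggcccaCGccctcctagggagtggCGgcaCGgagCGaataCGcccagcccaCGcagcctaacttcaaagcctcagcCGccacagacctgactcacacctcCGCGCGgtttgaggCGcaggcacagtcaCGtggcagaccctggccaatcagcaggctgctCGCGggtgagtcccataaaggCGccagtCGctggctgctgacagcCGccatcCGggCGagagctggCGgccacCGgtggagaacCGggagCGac
Tex101, chr7:24672001-24672300, minus strand: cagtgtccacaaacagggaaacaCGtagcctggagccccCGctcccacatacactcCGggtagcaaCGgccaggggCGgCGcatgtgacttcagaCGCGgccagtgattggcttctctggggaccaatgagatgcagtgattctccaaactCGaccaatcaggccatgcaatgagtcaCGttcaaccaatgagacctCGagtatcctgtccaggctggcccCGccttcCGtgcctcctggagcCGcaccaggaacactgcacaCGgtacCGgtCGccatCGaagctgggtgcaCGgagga
The windows hold 10, 28, 23 and 19 CG. As many or more are found in 43.5%, 14.2%, 21.5% and 28.1% of all 32851 windows of that length, in the same order. Those windows had a median of 7 CG. The joined genes had a median of 20 CG (quartiles 13 and 28), with 79.3% matched to a window. Stra8 thus lay under the lower quartile of the joined genes, Brdt and Tex101 near their median, and Dazl at their upper quartile. Over path genes that rose, the median was 21 CG, with 82.1% of the genes matched to a window. It was 11.25 for reversed genes (16 of 19 matched), 18 for those not begun, 22 for part way and 21 for completed. For path genes that fell only 73.5% were matched, so the count is void there. No methylation was measured in these files.

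Most path genes that rose were part way in Tet1-KO, while those that fell were more often completed. Of the 1035 that rose, 19 (1.84%) were reversed, 257 (24.8%) not begun, 616 (59.5%) part way, 133 (12.9%) completed and 10 (0.966%) overshot. Of the 298 that fell, 2 (0.671%) were reversed, 22 (7.38%) not begun, 125 (41.9%) part way, 129 (43.3%) completed and 20 (6.71%) overshot. The median position was 0.42 for genes that rose (quartiles 0.23 and 0.62) and 0.75 for genes that fell (0.49 and 0.98). WT, staged the same way, stood at the E13.5f end for both, being nearly the same column. Path genes were chosen on the E13.5f value that also ends the path. That choice alone can place any other group short of the end, and how much it did so here was not tested. In Tet1-KO the median gene that rose was at 45.9% of its E13.5f level (quartiles 31.6 and 59.0), and the median gene that fell at 151% (105 and 214).

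This contrast between rises and falls depends on the scale. The median log2 ratio of Tet1-KO over WT was -0.38 over 9145 genes above 1 FPKM in both, so most genes read lower in Tet1-KO, while the median of E13.5f over E11.5 was 0.19 over 8928 genes. With Tet1-KO centred on WT the median position became 0.61 for genes that rose and 0.55 for genes that fell, and their order turned round. That both medians lie between the E11.5 and E13.5f levels holds on both scales. Centring moved 8 of the 45 named genes that rose and 7 of the 31 that fell into another class. Near a limit the class says little: 211 of the 1035 rising and 54 of the 298 falling genes lay within 0.05 of one. Just under and just over 0.25 stood Asb4 and Ppcdc among the rises, at 0.249 and 0.252, and just under and over 0.75 stood Csrp1 and Fstl1 among the falls, at 0.749 and 0.751.

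**Figure D1:**
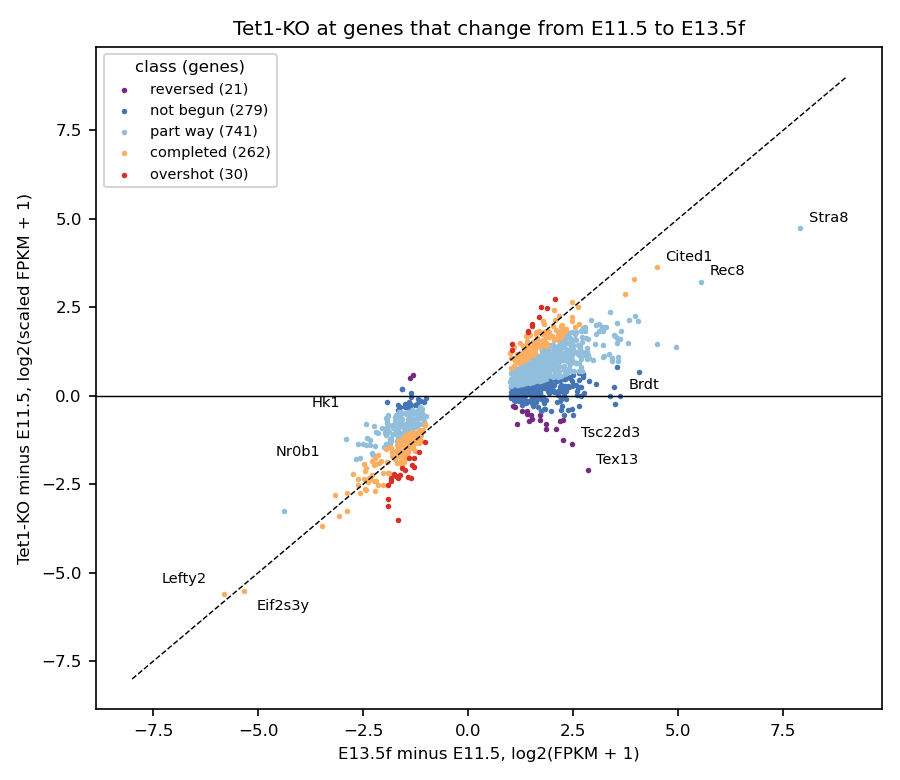
Each point is 1 of the 1333 path genes, with the E13.5f minus E11.5 change on the x axis and the Tet1-KO minus E11.5 difference on the y axis, both in log2(FPKM + 1). Points on the dashed line match E13.5f and points on the horizontal line match E11.5. Most of the 1035 rising genes lie between the lines, while the 19 reversed ones lie below the horizontal line.

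Across all 11973 genes, path gene or not, Tet1-KO was nearer in level to E11.5 than to E13.5f for 6485 (54.2%). Among path genes it was nearer to E11.5 for 625 of the 1035 that rose (60.4%) and for 78 of the 298 that fell (26.2%). In E13.5m, staged the same way, the counts were 478 (46.2%) and 74 (24.8%), with median positions of 0.52 and 0.80. Part-way positions were thus also common in a wild-type E13.5 group, so a position is not a developmental age. With Tet1-KO centred on WT its median for rises was 0.61, above the 0.52 of E13.5m, so their order depends on the scale. The counts of nearer genes were taken on the uncentred scale only. On that scale too, Tet1-KO differed from E11.5 by 1 or more in log2(FPKM + 1) at 566 of the 11973 genes that were higher and 707 that were lower. Most genes read lower in Tet1-KO than in WT on this scale, so the excess of lower genes may depend on it.

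**Figure D2:**
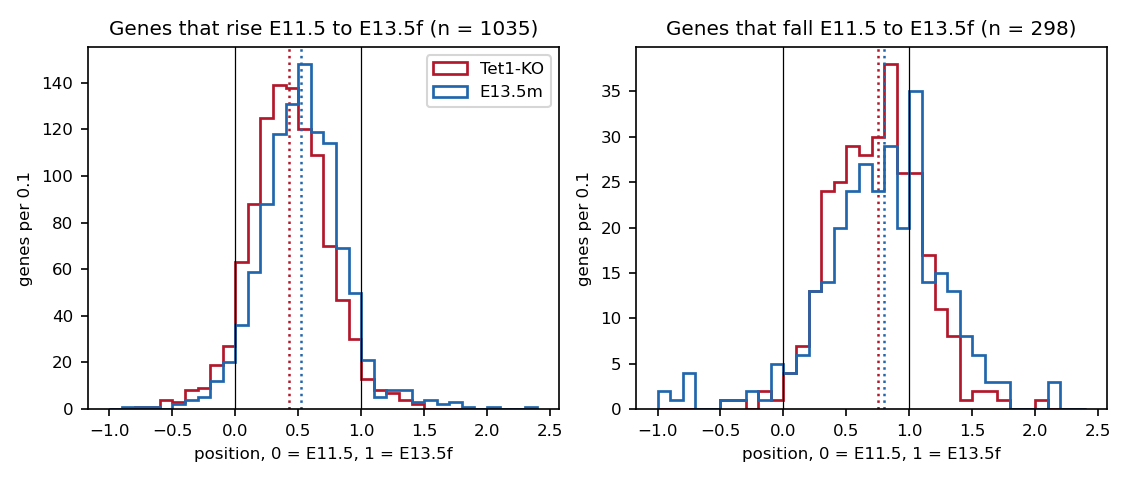
Number of path genes (y axis, in steps of 0.1) at each position (x axis, 0 for the E11.5 level and 1 for the E13.5f level) for Tet1-KO in red and E13.5m in blue, with dotted lines at the medians and values beyond the axis counted in the end bins. Among the 1035 rising genes the Tet1-KO median of 0.42 is left of the E13.5m median of 0.52, and among the 298 falling genes the medians are 0.75 and 0.80. Tet1-KO is uncentred here, and centred on WT its median for rising genes was 0.61.

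In the WT to Tet1-KO comparison the authors' deposited table called 725 of the 11973 genes lower in Tet1-KO (6.06%) and 85 higher (0.71%), at an FDR under 0.05. Lower calls fell on 18 of the 19 reversed rises, 188 of the 257 not begun and 138 of the 616 part way, and on 0 of the 133 completed and 0 of the 10 overshot. Higher calls fell on 1 of the 2 reversed falls, 14 of the 22 not begun and 20 of the 125 part way. The position is built on the same Tet1-KO value and nearly the same wild-type value as the call, so these counts describe the classes and support nothing further. Lower calls were more common among rising path genes than among all joined genes. Counts for lists of rising genes are thus not to be read against 6.06% alone.

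Genes that start meiosis mostly stood between their E11.5 and E13.5f levels in Tet1-KO. Stra8, the retinoic acid target that germ cells need to enter meiosis (chromosome 6, 34870959 to 34889342, build mm9), stood at 0.205 FPKM at E11.5, 288 at E13.5f and 30.9 in Tet1-KO. It was thus near zero at E11.5, and Tet1-KO held a clear level that was 10.7% of E13.5f, at position 0.60, or 0.67 with a pseudocount of 0.1 FPKM. The log2 ratio of Tet1-KO over E11.5 was 7.24 ± 1.22 (SE). E13.5m was at a like level of 38.1 FPKM. Rec8, the meiotic cohesin subunit, was at 5.63 FPKM at E11.5, 309 at E13.5f and 60.9 in Tet1-KO, position 0.58, with 3.44 ± 0.69 (SE) over E11.5. Meioc, listed as Gm1564, whose product keeps germ cells in meiotic prophase, was at 0.0503, 22.5 and 1.89 FPKM in the same order, position 0.33.

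Dazl, the RNA-binding protein gene that licenses germ cells for sexual differentiation (chromosome 17, 50418718 to 50432924), was abundant already at E11.5. It stood at 309 FPKM at E11.5, 1421 at E13.5f, 645 in Tet1-KO and 1334 in E13.5m. Tet1-KO was at position 0.48, a log2 ratio of 1.062 over E11.5 with no SE, since the deposited p-value is listed at 0. The other 2 germ cell groups at E13.5 were both above Tet1-KO at this gene. Msx1, a homeobox gene of the BMP response, stood at 21.2, 208 and 84.7 FPKM in E11.5, E13.5f and Tet1-KO, and its relative Msx2 at 22.9, 58.2 and 54.1 FPKM. Msx2 was the 1 completed gene of this list, at position 0.92. Of 8 meiotic entry genes listed, all were joined and 7 rose to E13.5f and were path genes. In Tet1-KO 6 were called lower, beside 6.06% of all joined genes. Lower calls were more common than that among all rises, falling on 188 of the 257 not begun and 138 of the 616 part way. Of the 7, 6 were part way and 1 completed, with a median position of 0.58 against 0.42 for all rises, and the counts stayed 6 and 1 with Tet1-KO centred. In percent of E13.5f, Tet1-KO was at 8.38 for Meioc, 10.7 for Stra8, 19.7 for Rec8 and 40.8 for Msx1. Zglp1 of the same list was at 41.0, Dazl at 45.4 and Msx2 at 93.0, beside a median of 45.9 over all rises. The higher median position thus does not mean levels nearer to E13.5f.

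**Figure D3:**
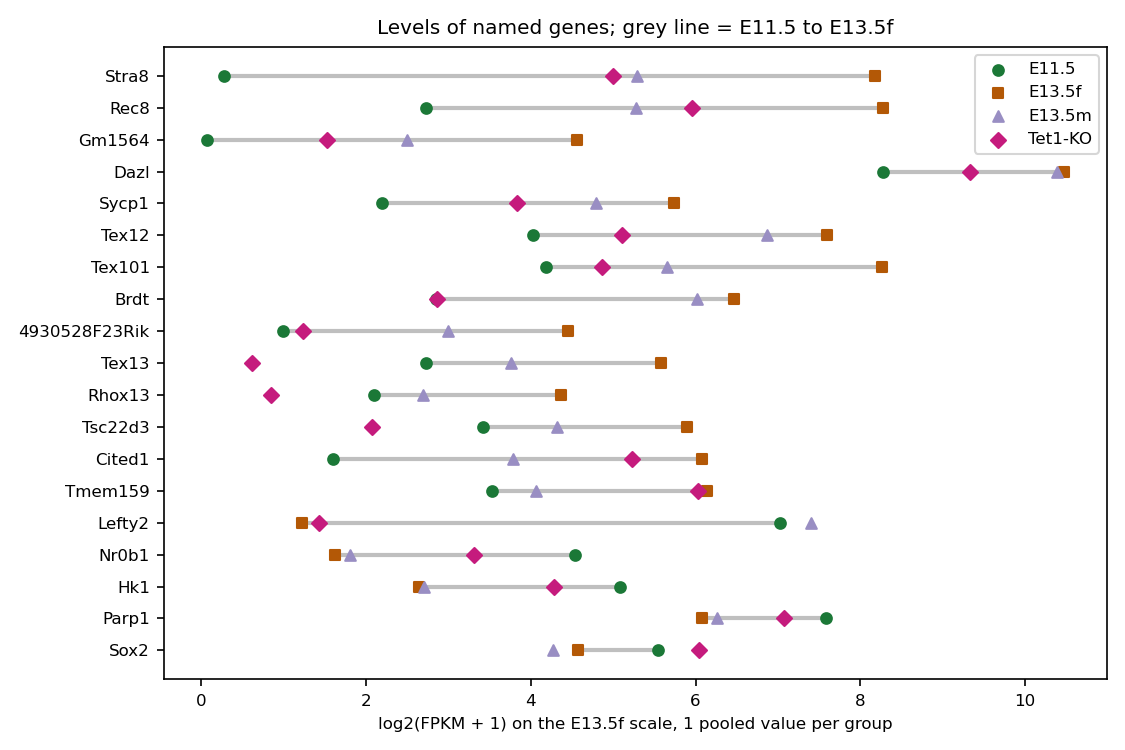
Levels of 19 named genes (y axis) in log2(FPKM + 1) (x axis), 1 pooled value per group, with E11.5 as circles, E13.5f as squares, E13.5m as triangles and Tet1-KO as diamonds. The grey line joins E11.5 to E13.5f: the Stra8 diamond lies on it at position 0.60, the Brdt diamond covers the E11.5 circle, and the Tex13, Rhox13, Tsc22d3 and Sox2 diamonds lie beyond the E11.5 end.

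Genes of the chromosome axis and the synaptonemal complex, which hold paired chromosomes together, were mostly part way. Sycp1, the transverse filament gene, was at 3.56 FPKM at E11.5, 52.3 at E13.5f and 13.2 in Tet1-KO, position 0.46 and 1.89 ± 0.64 (SE) over E11.5. Tex12, of the central element, was at 15.3, 192 and 33.5 FPKM, position 0.30. The meiotic cohesin gene Smc1b was further along, at 26.7, 130 and 78.7 FPKM, position 0.68. Six6os1, listed as 4930447C04Rik, was at 7.62, 47.3 and 22.3 FPKM. By contrast Syce1, also of the central element, was at 79.0, 328 and 97.5 FPKM, and Sycp2, of the lateral element, at 0.804, 7.43 and 0.487 FPKM, which places them at 0.15 and -0.12. Of 14 genes listed, 10 were joined and all 10 rose to E13.5f. In Tet1-KO 7 were called lower, beside 6.06% of all joined genes and a larger share of all rising path genes. Of the 10 path genes 2 were not begun and 8 part way, with a median position of 0.43. With Tet1-KO centred 1 was not begun, 8 part way and 1 completed.
Sycp3, named after its values were seen, has no completed test in the stage table; it was listed at 45.4 FPKM at E11.5, 410 at E13.5f and 74.3 in Tet1-KO.

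Recombination genes were spread over the path from end to end. Meiob, listed as 4930528F23Rik, which encodes a single-strand DNA binding protein of meiotic recombination, stood at 0.983 FPKM at E11.5, 20.9 at E13.5f and 1.35 in Tet1-KO. Prdm9, the histone methyltransferase gene that places recombination sites, stood at 0.366, 5.48 and 0.645 FPKM. Their Tet1-KO levels were close to those at E11.5, with log2 ratios over E11.5 of 0.46 ± 1.13 (SE) and 0.82 ± 1.17 (SE), and positions of 0.07 and 0.12. Dmc1, the meiotic strand exchange recombinase gene, stood instead at 5.74, 32.1 and 23.1 FPKM, position 0.80, while E13.5m was at 9.59 FPKM. Its log2 ratio over E11.5 was 2.01 ± 0.69 (SE). Spata22, the partner gene of Meiob, was at 0.113, 6.88 and 1.63 FPKM, position 0.44. Of 21 genes listed 17 were joined and 10 rose to E13.5f. In Tet1-KO 6 were called lower, beside 6.06% of all joined genes and a larger share of all rising path genes. Of the 10 path genes 5 were not begun, 3 part way and 2 completed. Their median position was 0.22, against 0.63 for the same genes in E13.5m, and all rises had 0.42 and 0.52. On the centred scale 4 were not begun, 4 part way and 2 completed, while the median of all rises became 0.61.

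Genes of the gonadal germ cell and the piRNA pathway, which silences transposons, included some of the longest changes with a Tet1-KO level at the E11.5 level. Brdt, a bromodomain gene of germ cells (chromosome 5, 107760212 to 107816077), stood at 6.20 FPKM at E11.5, 87.7 at E13.5f and 6.24 in Tet1-KO. E13.5m, at 63.9 FPKM, was near E13.5f. Tet1-KO was thus level with E11.5 and at 7.11% of E13.5f, a position of 0.00. Tex101, a gene for a germ cell surface protein (chromosome 7, 25453030 to 25457069), stood at 17.2, 306 and 28.1 FPKM, position 0.17, and at 49.3 FPKM in E13.5m. Slc25a31, a germ cell ADP/ATP carrier gene, was slightly below its E11.5 level, at 74.5, 341 and 66.4 FPKM. Mael, a piRNA pathway gene, was at 61.2, 442 and 126 FPKM, position 0.36. X-linked Taf7l, a germ cell paralogue of a general transcription factor subunit gene, was at 1.81, 85.7 and 6.33 FPKM, position 0.28 and 1.80 ± 0.85 (SE) over E11.5.

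Of 29 genes in that list 28 were joined and 12 rose to E13.5f. In Tet1-KO 12 were called lower, beside 6.06% of all joined genes and a larger share of all rising path genes. The 12 path genes split into 1 reversed, 5 not begun, 5 part way and 1 completed, with a median position of 0.22. With Tet1-KO centred the split was 1, 2, 7 and 2, and Tex101 moved to part way at 0.26. Over all 28 members the median difference in log2(FPKM + 1) was 1.10 for E13.5f minus E11.5 and 0.16 for Tet1-KO minus E11.5. Over all joined genes these medians were 0.23 and -0.11. Dazl and Sohlh2 also stand in other lists.

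Of the oocyte genes that rose to E13.5f, 2 were not begun in Tet1-KO and 1 part way. Sohlh2, a transcription factor gene of early oocytes, stood at 99.1 FPKM at E11.5, 310 at E13.5f and 109 in Tet1-KO, 0.13 ± 0.53 (SE) over E11.5 on the log2 scale. Figla and Lhx8, 2 further oocyte transcription factor genes, were low throughout, at 0.220, 6.72 and 1.02 FPKM and at 0.151, 4.03 and 0.651 FPKM. Their log2 ratios over E11.5 were 2.21 ± 1.79 (SE) and 2.11 ± 1.62 (SE), and with a pseudocount of 0.1 FPKM both were part way, at 0.41 and 0.39. Of 15 genes listed 10 were joined and 3 rose to E13.5f. With Tet1-KO centred all 3 were part way.

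**Figure D4:**
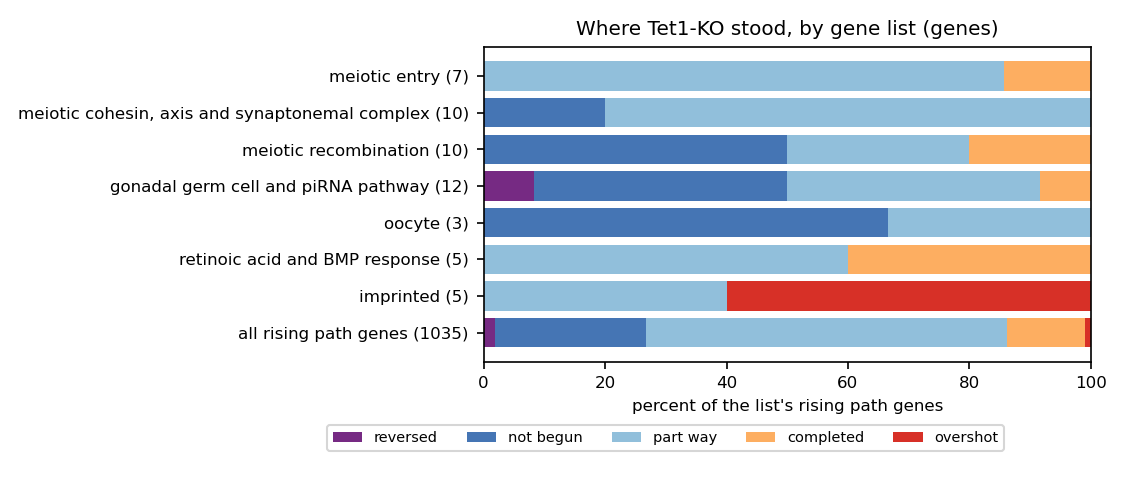
Share of each list's rising path genes (x axis, percent; number of genes in brackets) by class of Tet1-KO position. Meiotic entry genes are 6 of 7 part way, recombination genes are 5 of 10 not begun and imprinted genes 3 of 5 overshot, beside 616 of 1035 part way over all rising path genes.

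Targets of retinoic acid and BMP that rose to E13.5f were part way or completed. Gata2 stood at 23.7 FPKM at E11.5, 109 at E13.5f and 81.4 in Tet1-KO, position 0.81 and 1.78 ± 0.51 (SE) over E11.5. Id1 and Id2, direct BMP targets that encode inhibitors of helix-loop-helix factors, were at 49.7, 233 and 137 FPKM and at 24.3, 79.9 and 46.8 FPKM. In E13.5m these 3 genes were at 26.3, 29.7 and 17.9 FPKM, near or under E11.5. Of 21 genes listed 18 were joined and 5 rose to E13.5f, among them Msx1, called lower in Tet1-KO, and Msx2. The 5 path genes were 3 part way and 2 completed, with a median position of 0.66 in Tet1-KO and -0.25 in E13.5m. On the centred scale 1 was part way and 4 completed.

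Completed rises with the longest change were not meiotic genes by textbook role. X-linked Cited1, a transcriptional coactivator gene, stood at 2.02 FPKM at E11.5, 66.7 at E13.5f and 36.5 in Tet1-KO, 4.18 ± 0.89 (SE) over E11.5. Its Tet1-KO level, though classed completed, was 54.7% of E13.5f. Rnf130, a gene for a RING finger protein, was at 2.71, 55.8 and 35.4 FPKM, and Arhgdig at 1.90, 37.7 and 20.1 FPKM. Tmem159 was at 10.5, 69.3 and 64.1 FPKM, nearly at the end, with 15.7 FPKM in E13.5m. In the cell cycle list, of 24 genes with 20 joined, 3 rose, and they took 3 different positions. The inhibitor gene Cdkn2b was completed at 1.204, 6.91 and 6.08 FPKM, Ccnd1, which encodes cyclin D1, part way at 1.56, 39.4 and 11.3 FPKM, and the inhibitor gene Cdkn2d not begun at 40.4, 142 and 39.1 FPKM. Irx3 of the gonadal soma list and Krt18 of the epithelium list were also completed, at 8.45 and 54.0 FPKM in Tet1-KO against 8.46 and 68.6 at E13.5f.

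Imprinted genes, expressed from 1 parental copy, were 3 of the 10 overshot rises, and Plagl1 and Zrsr1 left that class for completed, at 1.24 each, with a pseudocount of 0.1 FPKM. Phlda2, which restrains placental growth, stood at 95.9 FPKM at E11.5, 278 at E13.5f and 391 in Tet1-KO, against 36.5 in E13.5m and 342 at E9.5. Plagl1 stood at 0.437, 4.24 and 7.07 FPKM in E11.5, E13.5f and Tet1-KO. For neither did the authors' deposited table call Tet1-KO different from WT, at an FDR of 0.376 and 0.317. Zrsr1, the other overshot gene, had 5.58 FPKM in E13.5f but 8.54 in scaled WT, so its position of 1.32 rests on a wild-type value that differs between the tables. Ascl2 and Dlk1 were part way, at 0.44 and 0.27, and Dlk1 was the 1 of 19 joined imprinted genes called lower in Tet1-KO, beside 6.06% of all joined genes. Of 28 genes listed 19 were joined, and 5 rose to E13.5f.

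Reversed rises had a pooled level below E11.5, not always clear of error, although the change in the wild type was a rise. The longest were X-linked. Tex13, a testis-expressed gene (chromosome X, 137342845 to 137347972), stood at 5.63 FPKM at E11.5, 46.8 at E13.5f, 12.6 in E13.5m and 0.535 in Tet1-KO. Tet1-KO was the lowest of these 4 groups, with a log2 ratio over E11.5 of -3.40 ± 1.09 (SE). Tsc22d3, the glucocorticoid-induced leucine zipper gene (chromosome X, 137074067 to 137135061), stood at 9.68, 58.6, 18.9 and 3.19 FPKM in the same order, and at 61.0 at E9.5. Rhox13, a homeobox gene (chromosome X, 35474016 to 35483143), stood at 3.28, 19.5, 5.45 and 0.800 FPKM. For Tsc22d3 and Rhox13 the log2 ratios over E11.5 were -1.60 ± 0.74 (SE) and -2.04 ± 1.22 (SE). Luzp4, also X-linked, was at 0.932 FPKM in Tet1-KO and autosomal 4933427D06Rik at 0.630 FPKM, against 2.13 and 1.69 at E11.5. Their log2 ratios over E11.5 were -1.19 ± 1.11 (SE) and -1.43 ± 1.08 (SE). Rhox13, Luzp4 and 4933427D06Rik were thus not clearly below E11.5. On the centred scale Luzp4 moved to not begun, at -0.22.

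Of the 19 reversed rises 8 were X-linked, a property looked at after the values were seen. Among all joined genes 472 were X-linked (3.94%), among the rises 85 (8.21%), among rises not begun 21 of 257 and among completed rises 10 of 133. Luzp4, Gm15097, Gm15107 and Gm15114 among the 8 lie in a multicopy family whose near-identical copies can split reads, so their values are uncertain and not independent. The median log2 ratio of Tet1-KO over WT was -0.34 over 334 X-linked and -0.38 over 8811 autosomal genes. The median log2 ratio of E13.5f over E11.5 was 0.48 on X and 0.18 on autosomes, with no test of either difference. Rising path genes had a median position of 0.37 on X and 0.43 on autosomes. The share of X-linked genes among rises also carries the sex mix of the E11.5 cells, which cannot be told apart from stage.

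Falls of the Nodal pathway were at the E13.5f level in Tet1-KO. Lefty2, a Nodal inhibitor gene (chromosome 1, 182823249 to 182829233), stood at 129 FPKM at E11.5, 1.327 at E13.5f and 1.69 in Tet1-KO, -6.26 ± 1.04 (SE) over E11.5 on the log2 scale. Lefty1, its neighbour and paralogue, stood at 37.2, 2.43 and 2.00 FPKM. These 2 genes were at 167 and 312 FPKM in E13.5m. Tdgf1, the Nodal co-receptor gene, was at 37.8, 0.845 and 3.04 FPKM, position 0.74, just under the limit. Of 13 genes listed 11 were joined and 4 fell, 3 of them completed and 1 part way. Nanos2, the male germ cell gene, was at 0.0611 FPKM at E11.5, 0.910 at E13.5f, 0.0238 in Tet1-KO and 24.7 in E13.5m. Otx2 was at 0.635, 1.83, 0.0199 and 43.3 FPKM in the same order. These low genes were the 2 of the 11 called lower in Tet1-KO, and 1 was called higher. Among all joined genes the shares were 6.06% and 0.71%.

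Y-linked genes took the same position as the completed Nodal pathway falls. Eif2s3y was at 46.5 FPKM at E11.5, 264 in E13.5m, 0.178 at E13.5f and 0.0284 in Tet1-KO, and Ddx3y at 2.17, 3.27, 0.0120 and 0 FPKM. The E11.5 libraries thus held Y-linked RNA that E13.5f and Tet1-KO nearly lacked. Completion at genes that are high in E13.5m, the Nodal genes among them, cannot be told apart from the absence of Y-bearing cells. Xist, the X inactivation RNA, was at 0.0481, 0.0233 and 0.0470 FPKM in E11.5, E13.5f and Tet1-KO.

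Genes of pluripotency and PGC identity were mostly not path genes, and the falls among them were part way. Nr0b1, an X-linked nuclear receptor gene of the pluripotency network, stood at 22.2 FPKM at E11.5, 2.08 at E13.5f and 8.90 in Tet1-KO, position 0.42 and -1.32 ± 0.93 (SE) over E11.5. Esrrb, another nuclear receptor gene, was at 37.5, 7.28 and 13.4 FPKM, and Klf2, a Krüppel-like factor gene, at 171, 60.7 and 119 FPKM. In E13.5m the 3 were at 2.50, 6.91 and 40.9 FPKM, as low as or lower than E13.5f for Esrrb and Klf2. Of 30 genes listed 27 were joined, 5 fell and 1 rose. The 5 falls were 4 part way and 1 completed, Dppa5a, with a median position of 0.64 against 0.75 for all falls.

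Sox2, which encodes a pluripotency factor, was off this pattern. It stood at 45.5 FPKM at E11.5, 22.8 at E13.5f, 18.3 in E13.5m and 64.7 in Tet1-KO (chromosome 3, 34459302 to 34576915). Tet1-KO was the highest of these groups. Sox2 is no path gene, since the authors' deposited table gives its fall a q-value of 0.144; the WT to Tet1-KO difference has an FDR of 0.00114 there. The log2 ratio over E11.5 was 0.51 ± 0.58 (SE), smaller than its error. The listed locus is far longer than the Sox2 gene and spans an overlapping transcript, so the value may hold reads of both. Acvr2b, an activin receptor gene of the Nodal list, and Tcfap2c, the PGC specification gene now named Tfap2c, gave a like order, at 22.4, 8.99 and 24.1 FPKM and at 185, 115 and 217 FPKM in E11.5, E13.5f and Tet1-KO. Both were called higher in Tet1-KO than in WT and neither is a path gene; they are named after their values were seen.

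Falls among glycolysis genes took 3 different positions. Hk1, the hexokinase gene of early glycolysis, stood at 32.8 FPKM at E11.5, 5.23 at E13.5f, 5.50 in E13.5m and 18.5 in Tet1-KO, position 0.33 and -0.83 ± 0.60 (SE) over E11.5; on the centred scale it was not begun, at 0.18. Pdk1, a kinase gene that keeps pyruvate from the mitochondrion, was at 41.2, 15.2 and 33.3 FPKM in E11.5, E13.5f and Tet1-KO, position 0.22. Pfkp, a phosphofructokinase gene, was at 49.9, 16.5 and 16.5 FPKM, at the end of the path. Of 20 glycolysis genes listed 18 were joined, 3 fell and 1 rose by less than the minimum length. Parp1, a DNA repair gene also linked to demethylation in PGCs, was at 190, 66.4, 75.3 and 134 FPKM in E11.5, E13.5f, E13.5m and Tet1-KO. It was the 1 path gene among 8 joined DNA methylation and demethylation genes, and moved from part way at 0.33 to not begun at 0.08 on the centred scale.

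The falls not begun and reversed were few. Pvrl2, a nectin cell adhesion gene, was at 133 FPKM at E11.5, 50.04 at E13.5f and 113 in Tet1-KO, and Rps18, a ribosomal protein gene, at 372, 121 and 296 FPKM. Fam108c, the reversed fall at 10 FPKM or more, was at 60.8, 22.5 and 86.1 FPKM, with a log2 ratio over E11.5 of 0.50 ± 0.59 (SE), within its error of the E11.5 level. At the other end, overshot falls were Raly, an RNA-binding protein gene, at 188, 49.0 and 24.0 FPKM, Rab5c, an endosomal GTPase gene, at 96.7, 25.04 and 10.2 FPKM, and the actin regulators Cotl1 and Capg, at 31.5 and 16.0 FPKM in Tet1-KO against 48.7 and 23.9 at E13.5f. On the centred scale Cotl1 and Capg were completed, at 1.13 and 1.11. Raly was the 1 overshot path gene called in Tet1-KO, where the authors' deposited table gives 0.0306 as its FDR.

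Genes that left the path are those called between WT and Tet1-KO whose Tet1-KO level lay at least 1 in log2(FPKM + 1) beyond both E11.5 and E13.5f. There were 45 below both groups and 15 above both. With Tet1-KO centred on WT there were 25 and 20, so the excess below depends on the scale. Of the 45 below, 42 had no call between E11.5 and E13.5f and 3 were the reversed rises Tex13, Tsc22d3 and Rhox13. All 15 above had no such call. Cap1, a regulator of actin filament turnover, stood at 95.8 FPKM at E11.5, 131 at E13.5f, 160 in E13.5m and 17.8 in Tet1-KO. X-linked Mageb4, a melanoma antigen family gene, stood at 28.7, 34.6, 18.5 and 5.72 FPKM in the same order, and Ccdc36, which encodes the recombination factor IHO1, at 5.94, 11.7, 9.97 and 1.01 FPKM. Tet1 itself is among the 45. Log2 ratios over E11.5 were -2.33 ± 0.64 (SE) for Mageb4 and -2.56 ± 0.88 (SE) for Ccdc36, and -2.43 with no SE for Cap1.

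Above both groups stood H1fx, a linker histone gene, at 6.97 FPKM at E11.5, 4.34 at E13.5f, 1.63 in E13.5m and 29.3 in Tet1-KO. Crls1, the cardiolipin synthase gene, stood at 10.7, 5.82, 3.10 and 34.0 FPKM, and Paip1, a translation factor gene, at 3.96, 5.19, 4.29 and 19.3 FPKM. Egr1, an immediate early gene, stood at 2.74, 6.38, 8.48 and 18.3 FPKM, and As3mt, an arsenic methyltransferase gene, at 13.9, 16.0, 6.93 and 40.9 FPKM. Log2 ratios over E11.5 ranged from 1.55 ± 0.67 (SE) for As3mt to 2.74 ± 0.72 (SE) for Egr1. At E9.5 As3mt was at 41.3 FPKM, level with Tet1-KO, and H1fx at 13.5. The count below both groups was 25 on the centred scale and 93 with a pseudocount of 0.1 FPKM, and the count above both was 20 and 15.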

How the data were processed

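PGC RNA was profiled in 12 libraries, and the pooled values of the Tet1-KO, WT, E11.5, E13.5f, E13.5m and E9.5 groups were used. Per the submitters' processing notes, reads were handled with TopHat 1.3.1 and Bowtie, build mm9, and with Cufflinks and Cuffdiff 1.2.1 for the stage samples and 1.0.3 for the knockout samples. The authors deposited 1 FPKM value per group and gene, with replicates pooled, per the file headers. They also deposited a p-value for each test, with a q-value in the stage tables. The test statistic of the stage tables and the FDR of the knockout table are scores as deposited; 2182 FDR values exceed 1, up to 1.06, and no call rests on those. These values do not give the depth of a library, and counting intervals could not be had.

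Tables were joined by gene name and the knockout table scaled as described above; E11.5 columns of the E13.5m and E9.5 tables were brought to the same scale by factors of 0.976 and 0.870. Calls are the authors' own at 0.05, adjusted over each whole table. Log2 ratios of Tet1-KO over E11.5 use no pseudocount; positions use 1 FPKM, which understates changes of low genes. The SE of a stage ratio is the ratio divided by the deposited statistic, and that of a knockout ratio comes from the two-sided normal deviate that its deposited p-value implies, where this deviate exceeds 0.05. The text names Stra8, Dazl, Sox2, Tet1, the 5 path genes with the longest change per class and direction at 10 FPKM or more, up to 4 path genes per list, the 5 most distant genes above and below the path at 10 FPKM or more in any group, and the sex markers; a few genes the rule names are not reported here. The members, the 16 gene lists and the rules were chosen with earlier results of these data known. Older symbols were matched by a short table of aliases. Alternatives are given in the closing section; the one restricted to genes with like WT and E13.5f levels was chosen after seeing the data. The position calculation was tested on simulated data made with the same formula and less noise than the SEs given here. That test covers the arithmetic and not how sure a class is. Work was done in Python 3.11.15 with pandas 2.3.3, numpy 2.4.6 and scipy 1.17.1, and plots in matplotlib 3.10.9.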

Additional observations from a re-analysis of the deposited data

How the results depend on the processing

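No paired analysis was possible because each group has 1 pooled value in the files; for the same reason no library could be left out. Of the values recomputed under alternatives, 64 stayed close to the reported value and 64 moved; no median position changed sign. The median position of rising genes was 0.424 as reported and 0.478 with a pseudocount of 0.1 FPKM, 0.614 centred, 0.456 for changes of at least 2, 0.453 for genes called the same way at E13.5m and 0.453 for genes called in the E13.5m table. For falls it was 0.554 centred and 0.872 for changes of at least 2. Counts below run from reversed over not begun, part way and completed to overshot. For rises they were 10, 120, 334, 65 and 4 at q under 0.01; 6, 66, 185, 30 and 1 for changes of at least 2; 1, 43, 126, 27 and 1 for genes called the same way at E13.5m; and 3, 50, 138, 31 and 1 for the E13.5m table. Centred, 11 were reversed, 112 not begun, 298 completed and 31 overshot. Completed and overshot were 205 and 6 with a pseudocount of 0.1, and 81 and 4 at 5 FPKM or more; with the limits moved from 0.25 and 0.75 to 0.33 and 0.67, and the overshot limit likewise from 0.25 to 0.33 past the E13.5f level, 3 were overshot. For falls the counts were 0, 5, 62, 52 and 8 at q under 0.01. For changes of at least 2 they were 0, 0, 18, 34 and 0. Centred, 6 were reversed, 62 not begun, 84 completed and 8 overshot. From not begun to overshot they were 4, 46, 32 and 8 for genes called the same way at E13.5m and 11, 56, 50 and 12 for the E13.5m table. Reversed falls were 1 with the path ending at scaled WT and 1 for genes whose wild-type values agree; overshot falls were 32 with a pseudocount of 0.1 and 12 with the other limits. Genes below both groups were 93 with a pseudocount of 0.1 and 25 centred, and genes above both were 15 and 20. Smaller sets of path genes explain the lower counts by construction; for the centred scale and the pseudocount the cause was not tested. The lack of values per library and of depth limits every level given here.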

Other observations

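Further genes, picked after their values were seen, showed levels in Tet1-KO beyond both stages. Cebpb, a transcription factor gene, was at 1.09 FPKM at E11.5, 1.59 at E13.5f, 0.373 in E13.5m and 8.92 in Tet1-KO, and Olig1, a transcription factor gene of the neural lineage, in the same order at 2.97, 1.199, 0.171 and 7.87 FPKM. Below both stages, Bmp4, the BMP ligand gene, was at 5.77, 11.6, 38.4 and 2.26 FPKM, and Samhd1, a dNTP hydrolase gene, at 59.3, 30.6, 51.4 and 12.1 FPKM.

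Some genes differ between the nominally equal wild-type columns. Of 9894 genes above 1 FPKM in both, 79 had scaled WT and E13.5f levels differing by more than a ratio of 5 to 4. Snrpn, an imprinted gene, was at 8.87 FPKM in E13.5f and 121 in WT before scaling, with 124 in scaled Tet1-KO, and Homer3 at 5.48 FPKM in E13.5f and 10.8 in WT before scaling. Uhrf1, a cofactor of maintenance methylation whose stage test was not completed, was at 6.69 FPKM at E11.5, 11.5 at E13.5f and 5.64 in Tet1-KO.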
